A study of Mus musculus with 8 samples.

Results

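The 46 genes described here carry mouse cells through the division cycle, from the G1 cyclins and the DNA replication machinery to the kinases, kinetochore proteins and motors of mitosis. They were taken by symbol from the 23183 genes listed in each of 8 bulk mRNA-seq libraries of cultured lung group 2 innate lymphoid cells (ILC2s), and were split into 25 genes of the G1/S transition and replication and 21 genes of G2 and mitosis. All 46 had at least 10 counts in 4 or more libraries (in fact in all 8) and were among the 12239 genes tested. In both groups, the cells came from wild-type mice labelled C57BL/6, which the study's methods name C57BL/6 J and describe as 6 to 10 weeks old and of both sexes. The mice had received recombinant IL-33, and ILC2s were enriched from the lung and then cultured with recombinant IL-2, IL-7 and IL-33 (10 ng/mL each). The 4 Yoda1 samples received 5 µM Yoda1, a chemical agonist of the mechanosensitive cation channel Piezo1, and the 4 DMSO samples received 0.1% DMSO as the vehicle, both for 3 h. The comparison asks what a short treatment with this agonist did to cell cycle transcripts in cells held in growth cytokines. Piezo1 was not removed or blocked in any of the 8 samples, so effects through the channel and other effects of Yoda1 cannot be told apart. The cultures were enriched with magnetic beads, and the sources used here describe no sort before this treatment. Nor is it stated whether the replicates are different mice or cultures of one pool, so p-values measure only the spread between these samples.

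Library totals ran from 12438009 to 19534653 counts, and each member was covered by between 78 (Gins1) and 48247 (Ccnd2) counts per library. Replicates of a group differed beyond counting noise in every pair (chi-square per gene 2.04 to 6.94), so all 8 were kept as separate samples. The ILC2 label was borne out by its markers: all 13 of the ILC2 list were counted, with a summed level of 14978 to 15440 CPM (counts per library size after TMM scaling) in DMSO and 17151 to 17548 in Yoda1 libraries. Of these 13 genes, 7 rose with Yoda1, against 6.04% of all genes tested, a treatment difference that does not bear on the label. Summed T cell markers (7 genes) were at 70.5 to 78.1 and 76.0 to 86.1 CPM, B cell markers (4) at 5.32 to 7.07 and 5.54 to 7.20, macrophage markers (5) at 3.32 to 3.92 and 2.37 to 3.65, and mast cell or basophil markers (5) at 3.62 to 5.24 and 4.84 to 5.54. Of NK cell markers (4), summed at 372.6 to 418 and 387 to 433 CPM and mostly Gzma, 1 rose (Eomes), against 6.04% of all genes tested. Of lung structural markers (4), summed at 213 to 227 and 218 to 223 CPM, nearly all was Pecam1, with Sftpc at 0 in every library. Ms4a1, Lyz2 and Mrc1 had at most 2 counts in any library. Apart from the ILC2 and NK cell lists, the test covered 7 T cell, 2 structural, 2 mast cell, 1 macrophage and 1 B cell marker, and none passed. The remaining markers of these lists had too few counts to be tested. The part of these other cells in the results was not tested.

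The cell cycle is driven by cyclin-dependent kinases (CDKs), which are switched on by cyclins made at set times. D-type cyclins with Cdk4 and Cdk6 inactivate the Rb family of repressors, E2F factors then switch on the genes for replication, and the MCM helicase loaded onto origins in G1 is fired in S phase. Genes for mitosis are kept silent in resting cells by the DREAM complex and are switched on later by B-Myb and Foxm1 through a promoter element called the CHR, usually near CCAAT boxes that bind NF-Y. In lymphocytes, interleukins drive the D-type cyclins, and bulk levels of mitotic transcripts are commonly read as a measure of how many cells are dividing. In bulk RNA, however, fewer cells in a phase and less RNA per cell cannot be told apart.

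Yoda1-treated ILC2s held slightly less mRNA of several mitotic genes than DMSO controls. Of the 21 G2/M genes, 8 fell and none rose (quasi-likelihood test in edgeR, Benjamini-Hochberg adjusted p under 0.05), against 4.84% of all genes tested that fell and 6.04% that rose. The genes that fell were Ccna2, Cdk1, Plk1, Cenpe, Cenpf, Kif23, Top2a and Mki67. Of the 25 G1/S genes, 3 fell (Ccnd3, E2f2 and Uhrf1) and none rose. All log2 fold changes lay between -0.29 (Cenpf) and 0.18 (Gins1), and the mean of Cenpf, the lowest of them, fell by 18.4%. The median log2 fold change was -0.12 for the G2/M genes, a decrease of 7.95%, and -0.070 for the G1/S genes, a decrease of 4.77%, beside -0.0053 for all genes tested. All 21 G2/M genes and 19 of the 25 G1/S genes had a value below 0, against 51.6% of all genes tested, although 2 of the G2/M values were within 0.005 of 0.

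The calls differed in how firmly they held. Plk1, Cenpe, Cenpf and Kif23 were called in all 15 alternatives tried, which included leaving out each library in turn. In GRCm38 (GENCODE M21), Plk1 at chr7:122159439-122169873 (plus strand, 10 exons), Cenpe at chr3:135212537-135273611 (plus strand, 46 exons), Cenpf at chr1:189640606-189688086 (minus strand, 18 exons) and Kif23 at chr9:61915905-61946774 (minus strand, 23 exons) are protein-coding genes. The other 7 calls were lost without at least 1 library, and of these Ccnd3, E2f2 and Top2a were also lost with the replicate number as a block and E2f2 with DESeq2. Ccnd3 was lost without DMSO 2, Yoda1 1 or Yoda1 4. E2f2 was lost without DMSO 2, DMSO 3, Yoda1 3 or Yoda1 4. Uhrf1 was lost without DMSO 2 or Yoda1 1, and Cdk1 without DMSO 3, DMSO 4, Yoda1 2 or Yoda1 4. Ccna2 was lost without DMSO 2, DMSO 4, Yoda1 1, Yoda1 2 or Yoda1 4. Top2a was lost without DMSO 2, DMSO 4, Yoda1 1, Yoda1 3 or Yoda1 4, and Mki67 without any single library other than DMSO 1 or Yoda1 2. The number of G2/M genes that fell was 4 without DMSO 4 or Yoda1 4, 5 without DMSO 2 or Yoda1 1, and 9 without DMSO 1. For the G1/S genes it was 0 without DMSO 2, 1 without Yoda1 1 or Yoda1 4, and 4 without DMSO 1 or DMSO 4.

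**Figure D1:**
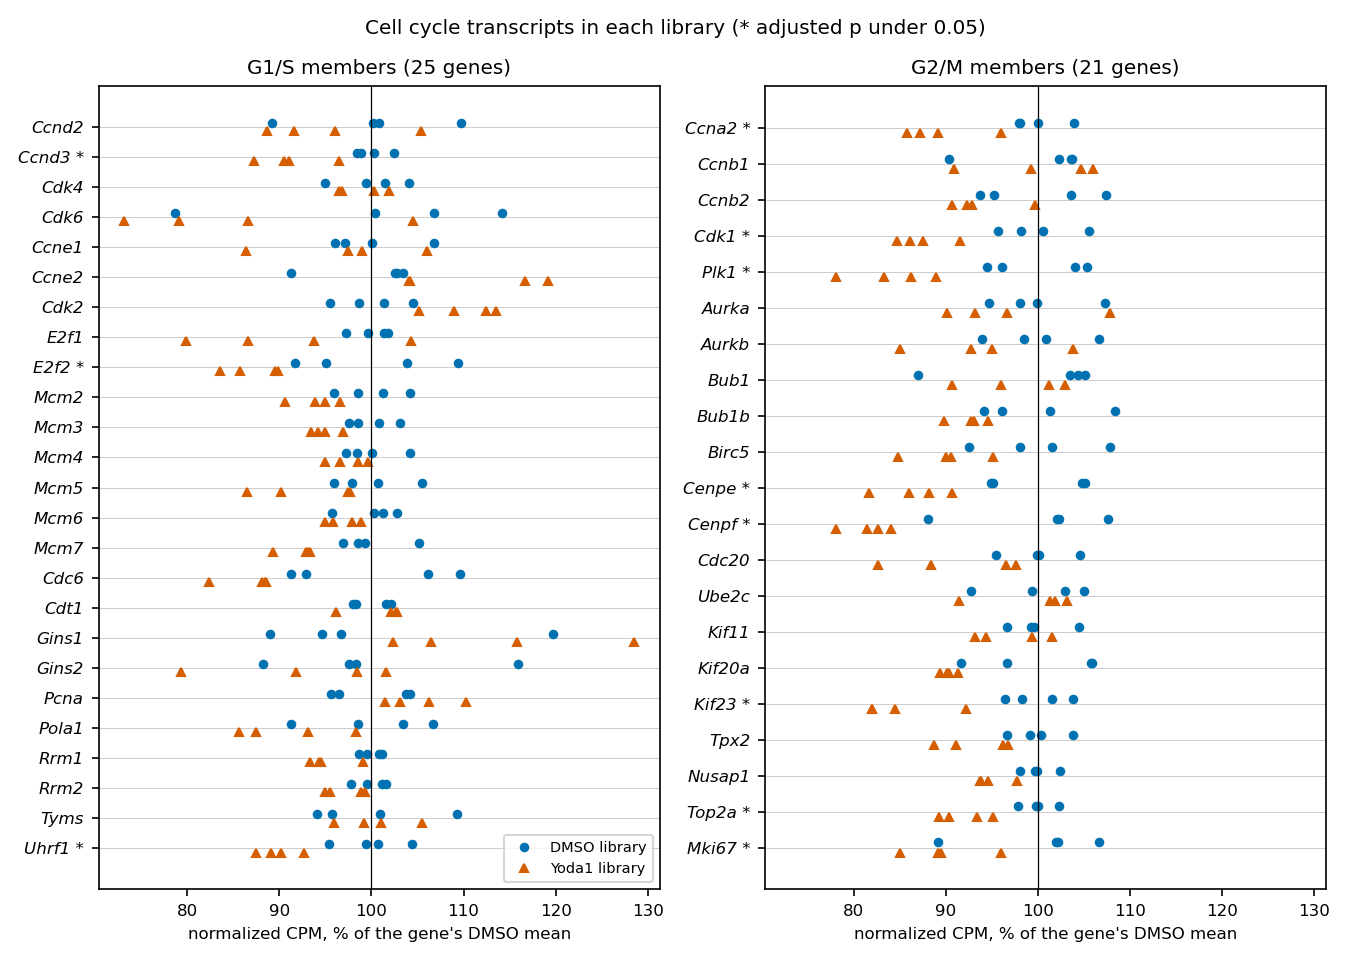
Normalized CPM of each of the 46 genes in each library, as a percentage of the gene's mean over the 4 DMSO libraries (x axis), with blue circles for DMSO and orange triangles for Yoda1 libraries. Most G2/M triangles lie left of 100, with all 4 Yoda1 libraries below all 4 DMSO libraries for 9 of 21 G2/M and 6 of 25 G1/S genes (7.05% of all genes tested), while Ccne2 and Cdk2 have all 4 Yoda1 libraries above (8.44% of all genes tested).

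The promoters of both classes carry different elements through which these genes are known to be timed, and 6 promoters are shown. Windows of 300 bases (250 before to 50 after the transcript start, RefSeq, GRCm38.p6) were matched by symbol for 20 of the 25 G1/S and 17 of the 21 G2/M genes. Ccnd2, Ccne2, Mcm4, Gins1, Gins2, Ccna2, Aurkb, Kif20a and Tpx2 had no entry. Both strands were searched for the CHR (TTTGAA), the CCAAT box (CCAAT) and 3 forms of the E2F site (TTTCCCGC, TTTGGCGC and TTTCGCGC), with overlapping matches counted separately. Each sequence below runs 5′ to 3′ on the gene's own strand, with 200 bases before and the first 20 after the start, and matches on either strand are in capitals. The first 4 belong to the genes with the smallest p among those that fell in each class, and Cdk1 and Mcm6 were added after the motif counts were seen, as examples of windows with several elements. The windows are at chr1:189688067-189688286, minus strand (Cenpf), chr3:135212363-135212582, plus strand (Cenpe), chr17:56303137-56303356, plus strand (Uhrf1), chr17:47504851-47505070, plus strand (Ccnd3), chr10:69352893-69353112, minus strand (Cdk1) and chr1:128359686-128359905, minus strand (Mcm6).
Cenpf: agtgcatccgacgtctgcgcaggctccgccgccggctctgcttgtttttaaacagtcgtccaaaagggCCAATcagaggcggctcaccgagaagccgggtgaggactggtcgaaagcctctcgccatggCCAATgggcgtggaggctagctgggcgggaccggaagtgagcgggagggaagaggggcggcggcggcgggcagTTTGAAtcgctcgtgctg
Cenpe: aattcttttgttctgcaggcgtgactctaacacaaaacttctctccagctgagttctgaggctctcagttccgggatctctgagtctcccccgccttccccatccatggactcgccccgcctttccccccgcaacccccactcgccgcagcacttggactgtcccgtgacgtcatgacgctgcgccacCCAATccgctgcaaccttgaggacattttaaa
Uhrf1: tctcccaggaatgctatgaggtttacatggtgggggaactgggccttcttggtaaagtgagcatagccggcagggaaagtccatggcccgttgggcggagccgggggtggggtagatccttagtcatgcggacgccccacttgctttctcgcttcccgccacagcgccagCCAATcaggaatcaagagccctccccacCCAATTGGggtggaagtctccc
Ccnd3: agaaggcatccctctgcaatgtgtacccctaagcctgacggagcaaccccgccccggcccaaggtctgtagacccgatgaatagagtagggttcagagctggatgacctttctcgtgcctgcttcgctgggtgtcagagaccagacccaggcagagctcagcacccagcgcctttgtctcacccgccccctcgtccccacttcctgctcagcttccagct
Cdk1: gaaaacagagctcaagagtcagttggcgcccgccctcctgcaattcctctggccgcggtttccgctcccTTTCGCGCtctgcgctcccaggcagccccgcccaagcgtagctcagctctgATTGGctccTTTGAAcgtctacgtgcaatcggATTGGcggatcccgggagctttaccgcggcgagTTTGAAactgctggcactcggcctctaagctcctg
Mcm6: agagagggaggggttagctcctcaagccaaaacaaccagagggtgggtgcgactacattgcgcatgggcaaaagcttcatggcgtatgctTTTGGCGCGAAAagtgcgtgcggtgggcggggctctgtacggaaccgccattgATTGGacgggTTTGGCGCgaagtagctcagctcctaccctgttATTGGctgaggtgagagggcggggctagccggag

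In these windows, Cenpf holds a CHR starting 2 bases after the transcript start and CCAAT boxes starting 71 and 132 bases before it. Cdk1 holds a pair of CHRs, starting 71 and 15 bases before the start, beside CCAAT boxes in reverse orientation and an E2F site, whereas Cenpe holds a single CCAAT box and no match to the CHR letters. Mcm6 holds overlapping E2F matches and a further E2F site, Uhrf1 CCAAT boxes (CCAATTGG is a match on each strand) and Ccnd3 none of the 5 motifs. Over the class, 12 of 17 G2/M windows (70.6%) held a CHR and all 12 also held a CCAAT box, while a CHR was in 1 of 20 G1/S windows (5%, Mcm2). Of the 9275 tested genes with a window, 11.6% held a CHR and 4.85% held both elements. Conversely, 9 of 20 G1/S windows (45%) and 1 of 17 G2/M windows (5.88%, Cdk1) held an E2F site, against 3.78% of all windows. The G1/S genes with an E2F match were Cdk2, E2f2, Mcm3, Mcm5, Mcm6, Mcm7, Cdc6, Cdt1 and Pola1. CCAAT boxes were in 60% of G1/S, 88.2% of G2/M and 38.5% of all windows. Within the G2/M genes, a CHR was in 6 of the 7 windows of genes that fell and in 6 of the 10 others. The 5 G2/M windows without the letters belong to Cenpe, which fell, and to Birc5, Bub1, Ccnb1 and Nusap1, with log2 fold changes of -0.15, -0.041, -0.0015 and -0.074. These are matches of letters and not shown to be bound sites.

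**Figure D2:**
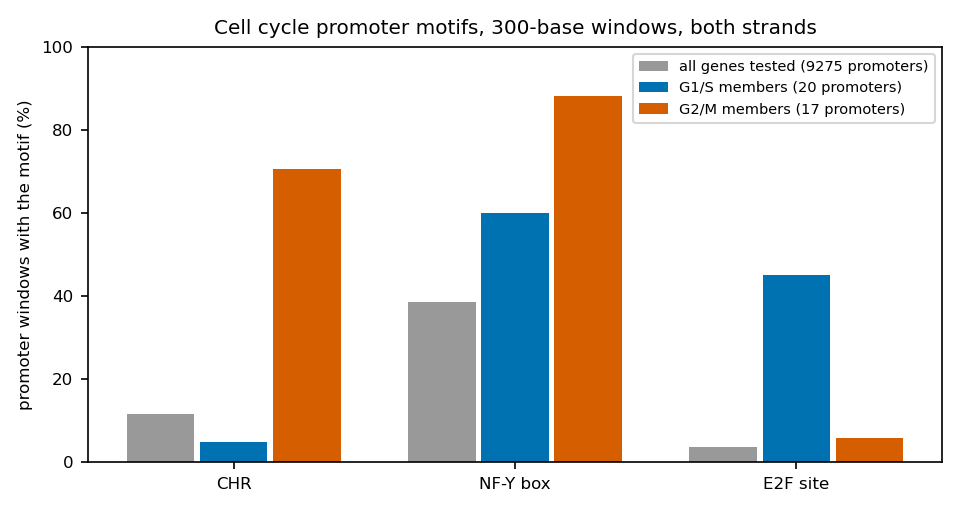
Share of 300-base promoter windows (y axis, %) that hold a CHR, an NF-Y (CCAAT) box or an E2F site on either strand, for all genes tested (grey, 9275 windows), G1/S genes (blue, 20) and G2/M genes (orange, 17). CHR matches are in 70.6% of the G2/M and 5% of the G1/S windows, and E2F matches in 5.88% and 45%.

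Among the kinases and cyclins of mitotic entry (7 genes), 3 fell, against 4.84% of all genes tested, and the median log2 fold change was -0.097. Plk1, the polo kinase that helps start mitosis and build the spindle, was at 35.6, 32.5, 35.2 and 31.9 CPM in the DMSO libraries and at 26.4, 29.2, 30.1 and 28.1 in the Yoda1 libraries. Every Yoda1 library lay below every DMSO library, and the mean went from 33.8 ± 1.86 to 28.4 ± 1.57 CPM (SD, n = 4 each), with a log2 fold change -0.25, SE 0.061, edgeR adjusted p = 0.00692. Cdk1, the kinase that drives mitosis, was at 35.1, 35.98, 36.8 and 38.7 CPM in DMSO and 32.05, 31.05, 33.5 and 31.5 in Yoda1 libraries. Its groups were also apart (log2 fold change -0.19, SE 0.056, edgeR adjusted p = 0.0228). Ccna2, or cyclin A2, which pairs with Cdk2 and then Cdk1, was at 68.98, 70.4, 69.1 and 73.2 and 60.4, 61.4, 67.6 and 62.8 CPM. Yoda1 3 lay close under the lowest DMSO library, and the other Yoda1 libraries well below (log2 fold change -0.16, SE 0.046, edgeR adjusted p = 0.0221).

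The B-type cyclins, the partners of Cdk1 in mitosis, did not pass the test. Ccnb1 was at 45.4, 44.8, 39.6 and 45.4 CPM in DMSO and 45.9, 39.8, 46.4 and 43.5 in Yoda1 libraries, and the groups overlapped throughout, with a log2 fold change of -0.0015 (SE 0.057, edgeR adjusted p = 0.991). The sign of this value changed with the settings, so it has no direction. Ccnb2 was at 33.8 ± 2.22 and 31.7 ± 1.35 CPM (SD, n = 4 each), with a log2 fold change of -0.10 (adjusted p = 0.326). The Aurora kinases Aurka, which acts at spindle poles, and Aurkb, which acts at centromeres and the midzone, gave -0.056 (adjusted p = 0.656) and -0.082 (adjusted p = 0.511), also with overlapping groups. For genes with a pseudogene that bears their symbol in the annotation (Ccnb1, Ccnb2, Ccnd3, Pcna and Tyms), reads from the copies could be shared. The counting rule for them is not given in the sources used here. Copies under other names were not searched for, so other members may share reads too.

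Of the checkpoint, kinetochore and anaphase genes (7 genes), 2 fell, against 4.84% of all genes tested. The median log2 fold change was -0.13. Cenpf, a large coiled-coil protein of the outer kinetochore and nuclear envelope, showed the lowest value of all 46 genes. It was at 52.01, 60.4, 60.2 and 63.5 CPM in the DMSO libraries and at 46.1, 48.1, 48.8 and 49.6 in the Yoda1 libraries. The groups were well apart even though DMSO 1 was the lowest of its group, and the mean fell from 59.02 ± 4.91 to 48.1 ± 1.496 CPM (SD, n = 4 each), with a log2 fold change -0.29, SE 0.054, edgeR adjusted p = 0.000447. Cenpe, the kinetochore motor that aligns chromosomes, was at 72.5, 80.2, 72.6 and 79.97 and 67.3, 69.2, 62.3 and 65.7 CPM. The groups did not overlap here either (log2 fold change -0.21, SE 0.048, edgeR adjusted p = 0.00417).

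The other 5 genes of this group did not pass the test. The checkpoint kinase Bub1 gave -0.041 (adjusted p = 0.782) and its relative Bub1b, or BubR1, -0.11 (adjusted p = 0.204). Survivin (Birc5), of the chromosomal passenger complex, gave -0.15 (adjusted p = 0.104) with unadjusted p = 0.0171, and Cdc20, which activates the anaphase-promoting complex, gave -0.13 (adjusted p = 0.134) with unadjusted p = 0.0256. Ube2c, the ubiquitin-conjugating enzyme of that complex, averaged 43.2 ± 2.32 and 42.9 ± 2.32 CPM (SD, n = 4 in each group) and gave -0.0047 (adjusted p = 0.969). Ube2c and Ccnb1 were thus the G2/M genes whose means were nearly equal.

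Of the spindle motors, chromosome proteins and the proliferation marker (7 genes), 3 fell, against 4.84% of all genes tested. The median log2 fold change was -0.12. Kif23, the motor of the central spindle used in cytokinesis, was at 36.9, 37.6, 39.8 and 38.9 CPM in DMSO and 31.4, 35.3, 31.4 and 32.4 in Yoda1 libraries. All Yoda1 libraries were lower, with Yoda1 2 nearest to the controls (log2 fold change -0.23, SE 0.057, edgeR adjusted p = 0.007797). Top2a, the topoisomerase that untangles sister chromatids, was at 376, 393, 383 and 384 and 342, 365, 347 and 358 CPM. It was one of the most abundant members, and its smaller decrease was still larger than the spread between replicates (log2 fold change -0.12, SE 0.035, edgeR adjusted p = 0.0233).

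Mki67, which encodes the Ki-67 proliferation marker, was at 327, 375, 374 and 391 CPM in the DMSO libraries and at 327, 352, 312 and 328 in the Yoda1 libraries. It passed the test (log2 fold change -0.15, SE 0.047, edgeR adjusted p = 0.0425) although its groups overlapped, because DMSO 1 lay among the Yoda1 libraries. The study, in contrast, reports that Yoda1 increased ILC2 proliferation, and it measured the share of Ki-67-positive ILC2s after 3 h of Yoda1. That share is a protein measure per cell, unlike the RNA level per library given here. Kif20a, a motor of the central spindle, was at 29.2, 33.7, 30.8 and 33.7 and 28.7, 28.5, 28.8 and 29.1 CPM, so all Yoda1 libraries were lower, but its log2 fold change of -0.15 (adjusted p = 0.123) did not pass. Nusap1, a spindle microtubule protein, was likewise apart at 40.3 ± 0.724 and 38.3 ± 0.761 CPM (SD, n = 4 each) and did not pass (-0.074 (adjusted p = 0.3901)). Tpx2, which targets Aurora A to the spindle, and Kif11, the motor that separates the poles, gave -0.10 (adjusted p = 0.142) and -0.042 (adjusted p = 0.619) with overlapping groups. In all, 9 of the 21 G2/M genes had every Yoda1 library below every DMSO library, against 7.05% of all genes tested.

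**Figure D3:**
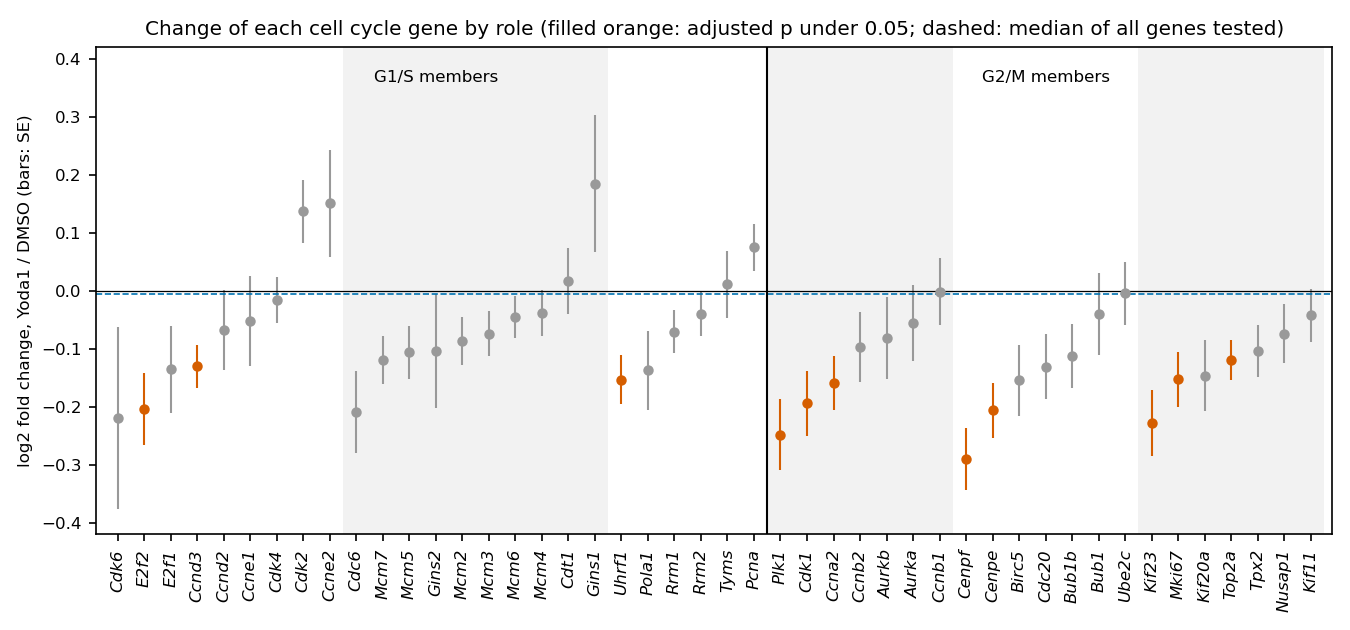
Log2 fold change of Yoda1 against DMSO (y axis) for each gene, with its standard error, sorted within 6 roles that alternate in shading: from left, G1 cyclins, kinases and E2F, origin licensing and firing, and DNA synthesis, then mitotic entry, checkpoint and kinetochore, and spindle. Orange points mark the 11 genes at an adjusted p under 0.05, all of them below 0, and the dashed line is the median of all genes tested (-0.0053).

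The G1 cyclins, their kinases and the E2F factors (9 genes) had values on both sides of 0, and the 2 that passed the test were lower. Of all genes tested, 4.84% fell. Ccnd3, a D-type cyclin prominent in lymphocytes, was at 203, 211, 204 and 207 CPM in DMSO and 180.0, 188, 199 and 187 in Yoda1 libraries. All Yoda1 libraries were lower, with Yoda1 3 close to the controls (log2 fold change -0.13, SE 0.037, edgeR adjusted p = 0.0203). E2f2, an activating E2F factor, was at 32.3, 38.6, 36.6 and 33.5 and 31.6, 31.5, 30.2 and 29.4 CPM. The gap to the lowest control, DMSO 1, was narrow (log2 fold change -0.20, SE 0.062, edgeR adjusted p = 0.0297).

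E2f1, the other activating E2F factor here, was at 22.03, 22.6, 22.95 and 23.1 CPM in DMSO and 19.6, 18.1, 23.6 and 21.2 in Yoda1 libraries. The Yoda1 libraries varied widely and one of them lay above all controls, so its log2 fold change of -0.14 (adjusted p = 0.256) did not pass. In contrast, Cdk2 and Ccne2, the kinase and the cyclin E2 that push cells into S phase, had every Yoda1 library above every DMSO library, a pattern seen for 8.44% of all genes tested. Cdk2 was at 37.6, 36.4, 35.4 and 34.3 CPM in DMSO and 40.8, 39.1, 37.8 and 40.4 in Yoda1 libraries (log2 fold change 0.14, SE 0.054, edgeR adjusted p = 0.102). Ccne2 was at 10.6, 10.5, 9.34 and 10.5 and 12.2, 10.7, 10.6 and 11.9 CPM, from 142 to 232 counts per library (log2 fold change 0.15, SE 0.092, edgeR adjusted p = 0.317). The gap between the groups was narrow for both genes, from 10.58 (DMSO 1) to 10.65 CPM (Yoda1 3) for Ccne2 and from 37.6 (DMSO 1) to 37.8 CPM (Yoda1 3) for Cdk2. Both gaps were smaller than the counting error (7.70% for Ccne2 and 4.12% for Cdk2). Neither passed the test, and the other E-type cyclin, Ccne1, gave -0.053 (adjusted p = 0.732) with overlapping groups.

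Ccnd2 and Cdk6, a cyclin D and a partner kinase, showed replicate spread far beyond counting error. Cdk6 was at 135, 183, 195 and 172 CPM in the DMSO and 148, 179, 125 and 135 CPM in the Yoda1 libraries, a coefficient of variation of 15.3% and 15.8%, where counting error alone would give 2.003%. Ccnd2 was at 2148, 2642, 2411 and 2426 and 2311, 2536, 2135 and 2205 CPM, a coefficient of variation of 8.4001% and 7.63%, with 0.521% from counting. For both genes, DMSO 1 was the lowest DMSO library and Yoda1 2 the highest Yoda1 library. Their log2 fold changes of -0.22 (adjusted p = 0.458) and -0.068 (adjusted p = 0.603) were therefore within the spread between replicates. Cdk4, the other kinase of the D-type cyclins, was nearly equal in both groups at 127 ± 4.89 and 126 ± 3.37 CPM (SD, n = 4 each; -0.016 (adjusted p = 0.8495)).

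None of the 10 genes of origin licensing and firing passed the test. Of these, 8 had a value below 0, against 51.6% of all genes tested. All 6 subunits of the MCM helicase, which opens DNA at the fork, were below 0, with log2 fold changes from -0.12 (Mcm7) to -0.039 (Mcm4) and a median of -0.080. Mcm7 was at 91.5, 96.9, 89.3 and 90.8 CPM in DMSO and 85.7, 86.02, 85.8 and 82.3 in Yoda1 libraries. All Yoda1 libraries were lower, but the gene missed the threshold (log2 fold change -0.12, SE 0.042, edgeR adjusted p = 0.0608). Mcm3 was also apart, at 113 ± 2.81 and 107 ± 1.68 CPM (SD, n = 4 each; -0.074 (adjusted p = 0.231)), while Mcm2, Mcm4, Mcm5 and Mcm6 overlapped between groups.

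Of the factors that load the helicase, Cdc6 was at 22.7, 27.2, 26.3 and 23.1 CPM in DMSO and 21.96, 20.5, 21.97 and 21.9 in Yoda1 libraries. Each Yoda1 library lay below each DMSO library, with the lowest of the controls close by (log2 fold change -0.21, SE 0.071, edgeR adjusted p = 0.0541). Cdt1, its partner in loading, was nearly equal at 31.4 ± 0.679 and 31.7 ± 1.01 CPM (SD, n = 4 each; 0.017 (adjusted p = 0.895)). Gins1 and Gins2, subunits of the active helicase, were among the least counted members and gave values of opposite sign, 0.18 (adjusted p = 0.349) and -0.10 (adjusted p = 0.555), both with overlapping groups. The Gins2 transcript shares 2758 bases with a single annotated exon of Gse1 on the opposite strand, and the strand setting of the counting is not given in the sources used here.

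Among the 6 genes of DNA synthesis, nucleotide supply and copying of chromatin, Uhrf1 fell and the others did not pass the test. Uhrf1, which brings the maintenance methyltransferase Dnmt1 to replicated DNA, was at 85.9, 93.98, 89.5 and 90.7 CPM in the DMSO and 78.7, 83.5, 80.2 and 81.2 in the Yoda1 libraries. The groups did not overlap (log2 fold change -0.15, SE 0.042, edgeR adjusted p = 0.0161). The ribonucleotide reductase subunits Rrm1 and Rrm2 gave -0.07 (adjusted p = 0.238) and -0.041 (adjusted p = 0.548), and Pola1, the catalytic subunit of the primase-polymerase, gave -0.14 (adjusted p = 0.201). Pcna, the sliding clamp, had a value above 0, 0.075 (adjusted p = 0.251), with 137 ± 6.31 CPM in DMSO and 144 ± 5.29 in Yoda1 libraries (SD, n = 4 each). Thymidylate synthase (Tyms) was nearly equal, 36.1 ± 2.47 and 36.2 ± 1.43 CPM (SD, n = 4 each; 0.011 (adjusted p = 0.935)). Over the 25 G1/S genes, 6 had all Yoda1 libraries lower and 2 had all Yoda1 libraries higher, against 7.05% and 8.44% of all genes tested.

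The classes were next compared within each library, by the mean log2 CPM of their genes. The G2/M mean was 5.65, 5.70, 5.66 and 5.70 in the DMSO libraries and 5.55, 5.56, 5.57 and 5.54 in the Yoda1 libraries, a difference of -0.12. The G1/S mean was 5.97, 6.01, 6.01 and 5.99 in DMSO and 5.93, 5.93, 5.95 and 5.95 in Yoda1 libraries, a difference of -0.057. For both classes, and also for the mean over all genes tested, every Yoda1 library lay below every DMSO library. The G1/S mean minus the G2/M mean, taken within each library, was 0.32, 0.31, 0.35 and 0.29 in DMSO and 0.39, 0.37, 0.38 and 0.41 in Yoda1 libraries. The lowest Yoda1 library was 0.37 and the highest DMSO library 0.35, so the balance between the classes did not overlap between groups, with a mean shift of 0.068 where the pooled SD was 0.021. The genes were chosen with results of these data known, so the shift is given as a description with no p-value. Over all genes tested, the mean log2 CPM differed by -0.016, from 4.586 to 4.593 in DMSO and 4.562 to 4.579 in Yoda1 libraries. Complete separation of the groups was thus not particular to the cell cycle classes.

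**Figure D4:**
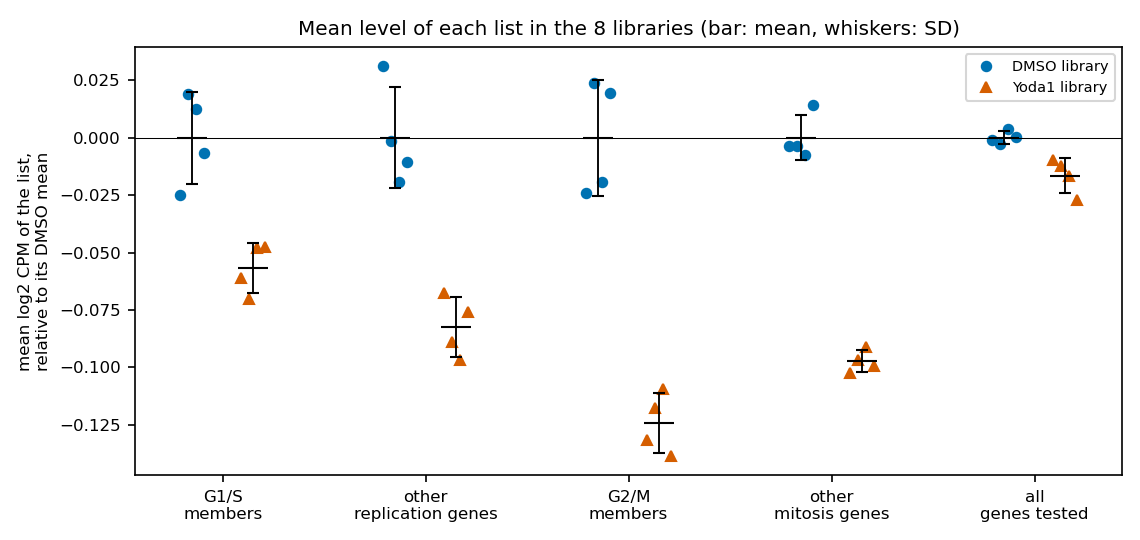
Mean log2 CPM of each gene list in each library, relative to the list's mean over the 4 DMSO libraries (y axis), with bars for the group mean and whiskers for the SD (n = 4). The Yoda1 libraries (orange triangles) lie below the DMSO libraries (blue circles) in all 4 cell cycle lists and also over all genes tested. The mean difference is 0.057 for the G1/S genes, 0.12 for the G2/M genes and 0.016 for all genes tested.

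The medians gave the same order. The G1/S median lay 0.049 above the G2/M median, and this difference was between 0.048 and 0.050 under the 7 other settings and between 0.029 (without DMSO 1) and 0.066 (without Yoda1 2) when each library was left out. The spread within a class was wider than the distance between the classes. The quartiles of the G2/M values were -0.16 and -0.074, and those of the G1/S values -0.13 and -0.016. Among the 9045 other genes with mean levels inside the range of the members, the median was 0.0062, 47.6% were below 0 and 5.12% fell.

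**Figure D5:**
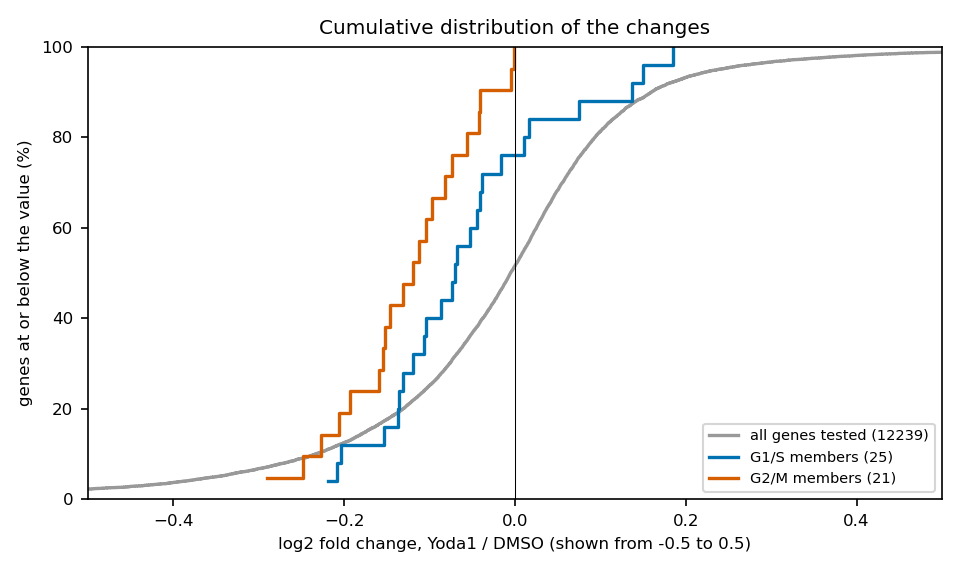
Cumulative share of genes (y axis, %) at or below a given log2 fold change (x axis, shown from -0.5 to 0.5) for all 12239 genes tested (grey), the 25 G1/S genes (blue) and the 21 G2/M genes (orange). The G2/M curve reaches 100% at -0.0015, the G1/S curve passes 76% at 0 and the curve of all genes 51.6%.

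The rest of the pathway was read from wider lists of its genes. Of 73 other mitosis genes, 13 fell, none rose, 59 had a value below 0 and the median log2 fold change was -0.086. Of all genes tested, 4.84% fell, 6.04% rose and 51.6% had a value below 0. The checkpoint kinase Ttk was at 10.95, 13.96, 13.9 and 12.05 CPM in DMSO and 8.396, 9.86, 10.05 and 10.7 in Yoda1 libraries, with no overlap (log2 fold change -0.37, SE 0.099, edgeR adjusted p = 0.0119), and this call was lost without DMSO 2, DMSO 3 or Yoda1 1. Kif15, a spindle motor, fell by 0.23 on the log2 scale (adjusted p = 0.00612), Ccnf, the cyclin F of an SCF ubiquitin ligase, by 0.28 (adjusted p = 0.00654), Cdca2, which brings phosphatase to chromatin at mitotic exit, by 0.26 (adjusted p = 0.00773) and Ncapd2, a condensin subunit, by 0.20 (adjusted p = 0.00315). The number that fell was 6 without DMSO 2, 7 without Yoda1 1 and 8 without DMSO 4. The mean log2 CPM of these 73 genes, none of which is among the 46, differed by -0.097.

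Of 48 other replication genes, 4 fell (against 4.84% of all genes tested) and none rose. A value below 0 was found for 37 of them (against 51.6%), and the median was also -0.086. The genes that fell were Timeless, which stabilizes the fork, Chaf1b, of the complex that places histones on new DNA, Pold1, the catalytic subunit of DNA polymerase delta, and Rfc1, of the clamp loader. Timeless was at 26.04, 26.1, 28.6 and 26.1 CPM in DMSO and 21.96, 19.1, 23.8 and 21.4 in Yoda1 libraries (log2 fold change -0.31, SE 0.07, edgeR adjusted p = 0.00304). Chaf1b was at 15.02, 14.4, 14.3 and 16.1 and 11.5, 10.5, 12.5 and 12.2 CPM (log2 fold change -0.35, SE 0.085, edgeR adjusted p = 0.00627). For both, every Yoda1 library was lower. Pold1 and Rfc1 gave -0.21 (adjusted p = 0.00916) and -0.18 (adjusted p = 0.01205), and both calls were lost without DMSO 2. In 12 of the 48 genes every Yoda1 library lay below every DMSO library, and in none above, against 7.05% and 8.44% of all genes tested. By the medians, the other mitosis and the other replication genes thus stood equally low, whereas the 21 G2/M and 25 G1/S genes had medians of -0.12 and -0.070.

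The brakes of the cycle (11 genes of the CDK inhibitors and the Rb family) did not pass the test in either direction. Of these, 0 were called by DESeq2. An unadjusted p under 0.05 by edgeR was found for 3 of them, beside 3093 of the 12239 genes tested. Cdkn1a, or p21, an inhibitor of CDKs, was at 587, 585, 581 and 584 CPM in DMSO and 602, 595, 642 and 611 in Yoda1 libraries. All Yoda1 libraries were slightly higher (log2 fold change 0.068, SE 0.034, edgeR adjusted p = 0.214). Cdkn1b, or p27, was at 68.9 ± 2.98 and 71.1 ± 1.23 CPM (SD, n = 4 each; 0.045 (adjusted p = 0.5697)). The inhibitors of Cdk4 and Cdk6 gave -0.093 (adjusted p = 0.225) for Cdkn2a, -0.16 (adjusted p = 0.0677) for Cdkn2b, -0.21 (adjusted p = 0.142) for Cdkn2c and 0.0083 (adjusted p = 0.9596) for Cdkn2d, whose sign changed with the scaling. Cdkn1c, or p57, was hardly expressed, with 5 to 22 counts per library (0.31 (adjusted p = 0.6498)), and the phosphatase gene Cdkn3 gave -0.21 (adjusted p = 0.401). The repressor Rb1 was at 402 ± 22.1 and 385 ± 20.1 CPM (SD, n = 4 each; -0.061 (adjusted p = 0.378)), and its relatives Rbl1 and Rbl2 gave -0.16 (adjusted p = 0.06796) and -0.025 (adjusted p = 0.735). Rbl1, which is itself an E2F target, passed the test without DMSO 2.

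Among 9 other G1 genes, Ccnd1 showed a far larger change than any of the 46. This D-type cyclin was at 5.57, 5.15, 4.99 and 4.66 CPM in the DMSO and 2.58, 2.68, 2.92 and 3.34 in the Yoda1 libraries, from 32 to 94 counts per library. The level of every Yoda1 library was below that of every DMSO library, and the mean fell from 5.09 ± 0.3799 to 2.88 ± 0.339 CPM (SD, n = 4 each), with a log2 fold change -0.81, SE 0.15, edgeR adjusted p = 0.000362. Its level was low beside that of the other D-type cyclins, Ccnd2 (2407 ± 202 CPM) and Ccnd3 (206 ± 3.702 CPM). Ccng2, an unconventional cyclin that is high in arrested cells, was at 71.5, 63.4, 65.5 and 64.9 CPM in DMSO and 73.8, 76.2, 79.2 and 73.6 in Yoda1 libraries. It rose in all Yoda1 libraries (log2 fold change 0.19, SE 0.046, edgeR adjusted p = 0.00656). Both calls held in all 15 alternatives. Of the remaining transcription factors of the cycle (16 genes, median 0.012), 1 rose, against 6.04% of all genes tested. It was Lin37, a subunit of the MuvB core of DREAM, at 22.9 ± 0.686 and 26.3 ± 0.925 CPM (SD, n = 4 each). Its log2 fold change was 0.20 (edgeR adjusted p = 0.0384). This call was lost with DESeq2 and without any single library other than DMSO 1.

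By level, the members spanned 2 orders of magnitude. Per kilobase of transcript, Ccnd2 was highest at 380.2 CPM per kb in DMSO libraries, followed by Ccnd3 (97.6), Pcna (90.2), Top2a (73.5), Mcm6 (67.2) and Cdk4 (61.9), and the lowest were Cenpf (5.303), Pola1 (4.95), Ccne2 (3.403) and Gins2 (3.03). The MCM subunits, which act as a ring with 1 copy of each, lay between 26.7 (Mcm2) and 67.2 (Mcm6) CPM per kb. Mitotic transcripts were clearly detected in both groups, with Mki67 at 36.5 CPM per kb in DMSO and 32.8 in Yoda1 libraries, and Ccnb1 at 17.6 in both. By the median, decreases were larger among longer transcripts. The 23 members above the median member length of 3018.5 bases had a median log2 fold change of -0.11 and the other 23 of -0.056, and the 7 members over 5000 bases one of -0.15. For genes that are no member, the corresponding medians were -0.0076, -0.00076 and -0.0052. The 23 members above the median GC content of 48.5% had a median of -0.10 and the others of -0.074, where other genes had -0.011 and 0.0056. The part of length in these values was not tested further. Of the genes that fell, Ccnd3, Ccna2 and Plk1 share 353, 428 and 156 bases with a single annotated exon of a gene on the opposite strand (Bysl, Exosc9 and Gm44985). Reads from these stretches cannot be told apart if the counting ignored strand. Among genes that did not pass, the longest such overlap beside that of Gins2 was that of Kif20a with Cdc23 (1115 bases).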

How the data were processed

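Poly(A)-selected RNA (TRIzol, directional library kit) of 8 samples was sequenced by the authors, who deposited raw read counts per gene symbol, 1 file per library with 23183 genes. For read processing, FastQC, FASTX Trimmer and BBMap are named in the methods, followed by Cufflinks and Cuffdiff. The submitters' processing notes list TopHat and mm10. Versions, annotation, counting tool and strand setting are not given in the sources used here. Genes that overlap or have near-identical copies may share reads.

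Counts were analyzed in R 4.3.3. Genes were filtered with filterByExpr (minimum count 10, total 15) and scaled with TMM (factors 0.988 to 1.01). Yoda1 was compared with DMSO over all 12239 genes with edgeR 4.0.16 (quasi-likelihood test, robust, no covariates, Benjamini-Hochberg at 0.05), since Cuffdiff needs reads. The test was checked on simulated data with larger changes than those of the members, so the check does not cover changes of their size. CPM are TMM-scaled, and log2 CPM used a prior count of 2. Intervals of counting cover counting error only. As alternatives, other scalings (upper-quartile factors, or library size only), other filters (none, or at least 10 counts in every library), other tools (DESeq2 1.42.0, and limma 3.58.1 with voom), a replicate block and the omission of each library in turn were tried. Lengths and overlaps came from GENCODE M21 (GRCm38), to which 95.5% of symbols matched, and promoters from RefSeq (GRCm38.p6).

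All 46 genes and the list of brakes are named, and of other lists those past the threshold, at most 10 in each direction by smallest p. The members and lists were chosen with earlier results of these data known. No set test was run, and lists are described by counts and medians beside those of all genes.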

Additional observations from a re-analysis of the deposited data

Results flagged for a closer look

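Within the 4 libraries of a group, 1 library stood apart by Dixon's test in 7 of the 98 groups examined (the 46 genes, the means of both classes and their difference, in each treatment), where chance flags about 1 in 20, or 4.9. Ccne2 was low in DMSO 3, at 9.34 CPM with the next library at 10.5, and Ccnb1 was low in the same library, at 39.6 CPM (next 44.8). Bub1 was low in DMSO 1, at 21.03 CPM (next 25.001). Cdt1 and Ube2c were low in Yoda1 1, at 30.2 CPM (next 32.1) and 39.5 CPM (next 43.7). Cdc6 was low in Yoda1 2, at 20.5 CPM (next 21.9), and Mcm7 in Yoda1 4, at 82.3 CPM (next 85.7). None of these 7 genes was among the 11 that fell.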

How the results depend on the processing

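With library size only and with upper-quartile factors, the median of all genes tested was -0.027 and -0.036 on the log2 scale, the G1/S median -0.092 and -0.10, and the G2/M median -0.14 and -0.15. The split of all calls was 553 higher and 809 lower with library size only and 505 higher and 958 lower with upper-quartile factors, against 739 and 592. Under these settings 5 and 6 G1/S genes fell, with Cdc6 and Mcm7 added in both and Mcm5 with upper-quartile factors, 9 and 10 other replication genes and 2 and 2 brakes (Cdkn2b and Rbl1), and no transcription factor rose (0 and 0). With upper-quartile factors 20 other mitosis genes and the members Birc5 and Tpx2 also fell. Without a filter, 1 brake (Rbl1), 4 G1/S genes (with Cdc6 added) and 5 other replication genes fell. With DESeq2, E2f2 was lost and 0 transcription factors rose. The G1/S median minus the G2/M median kept its sign in all 15 alternatives.

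Over the fits without one library each, the number lower ranged from 367 to 677 for all genes, 0 to 4 for G1/S, 4 to 9 for G2/M, 0 to 1 for brakes, 2 to 6 for other replication and 6 to 15 for other mitosis genes, and the number of transcription factors that rose from 0 to 1. The G1/S median minus the G2/M median ranged from 0.029 to 0.066.

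Values near 0 changed sign. With library size only and upper-quartile factors, Cdt1 gave -0.0048 and -0.014, Tyms -0.011 and -0.020, and Cdkn2d -0.013 and -0.022 (limma-voom -0.0029). Ccnb1 gave 0.0017 with DESeq2 and 0.00063 without a filter. Without one library each, Cdk4 ranged from -0.040 to 0.0027, Ccne1 from -0.094 to 0.0076, Tyms from -0.020 to 0.056, Ccnb1 from -0.047 to 0.043, Ube2c from -0.040 to 0.030, Cdkn2d from -0.052 to 0.080 and Rbl2 from -0.040 to 0.0034.

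No pairing by replicate number was seen: deviations of the same-numbered libraries correlated at 0.047, 0.072, -0.029 and 0.0021, and not every library correlated best with its own number. This does not show that the samples were unpaired. With the replicate block, 548 genes rose and 418 fell, 1 G1/S gene fell (Uhrf1), 0 transcription factors rose, and 8 of the 11 member calls remained, without Ccnd3, E2f2 and Top2a.

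At these depths, members with fewer counts, such as Gins1 and Ccne2, had counting errors of 9.60% and 7.70%, which limits the precision of their values.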
